A study of Macaca mulatta with 33 samples.

Results

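Trilostane, an inhibitor of 3-beta-hydroxysteroid dehydrogenase, was given together with human chorionic gonadotropin (hCG) for 1 day, and luteal RNA from these females was compared with luteal RNA after 1 day of hCG alone. The comparison holds 8 of the 33 arrays of the series, 4 with hCG and trilostane and 4 with hCG alone, and the members are all probe sets with 1 gene symbol on these arrays. Of 52865 probe sets, the 28911 that lay above the overall median in 4 or more arrays were tested, 17606 of them carry 1 symbol, and 9826 genes are each described by the tested probe set with the highest mean. The other tested probe sets carry several symbols or none, or a provisional locus symbol, and are only counted.

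The animals were adult, cycling female rhesus macaques, and the tissue was isolated corpus luteum taken on luteal day 10. In both groups a schedule of rising hCG doses that imitates early pregnancy had started on luteal day 9. Trilostane is the only labelled difference in treatment between the groups, and neither received R5020, a synthetic progestin used in other groups. The word reanalysis in the array titles also differs between them, as given below. Untreated day 10 tissue (8 arrays, of which 4 lie in the same array set as the 8 compared) gives the level without hCG on the same luteal day. Tissue of day 15, after 6 days of hCG alone (5 arrays) or hCG with trilostane (4 arrays), gives the same contrast later. Levels of other array sets are adjusted to the first set, in which all 8 arrays lie. At day 15 the hCG and trilostane groups lie largely in different array sets, so their difference rests on that adjustment. RNA of whole tissue was measured, so fewer cells of a type and less RNA per cell cannot be told apart, and blockade of steroid synthesis in these samples was not analysed here.

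The corpus luteum forms from the ovulated follicle and secretes progesterone. In early pregnancy chorionic gonadotropin acts on the luteinizing hormone receptor, raises cyclic AMP and keeps the gland alive. Cholesterol enters the mitochondria through STAR, is cut to pregnenolone by CYP11A1, and is turned into progesterone by 3-beta-hydroxysteroid dehydrogenase, the enzyme that trilostane blocks. Progesterone then acts in the gland itself through its nuclear receptor PGR, and inhibition of the enzyme is therefore used to remove that local signal.

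The labelled tissue was checked first. STAR stood at 14.64 ± 0.06 (mean log2 intensity ± SD, n = 4) with hCG and HSD3B2 at 13.78 ± 0.18, near the top of a scale that ends at 15.12. CYP11A1, HSD3B1 and LHCGR had no tested probe set with 1 symbol and are not described. Array medians were 6.19 ± 0.033 (SD, n = 4) with hCG and 6.24 ± 0.052 with trilostane before each array was centred on its median (exact two-sided permutation test, p = 0.143, smallest possible p = 0.0286). The gap between 3′ and 5′ control probe sets, a sign of RNA integrity, differed by 0.065 for actin and -0.052 for GAPDH (exact permutation p = 0.629 and 0.686). All 4 hCG arrays and the 4 untreated arrays of the set bear the word reanalysis in their titles, and no trilostane array does. That mark cannot be told apart from trilostane at day 10. The labels do not say whether each sample came from a separate animal, so the spread behind each p-value is that of these samples and may be technical.

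As a whole the trilostane arrays did not stand apart from the hCG arrays. The SD of log2 differences between a trilostane and an hCG array had a median of 0.419 over 16 pairs, against 0.417 over the 6 pairs within hCG and 0.402 over the 6 pairs within trilostane. Of the 8 arrays, 5 had their nearest neighbour in the other group. The closest pair of all was hCG replicate 3 with trilostane replicate 1, at 0.325.

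**Figure D1:**
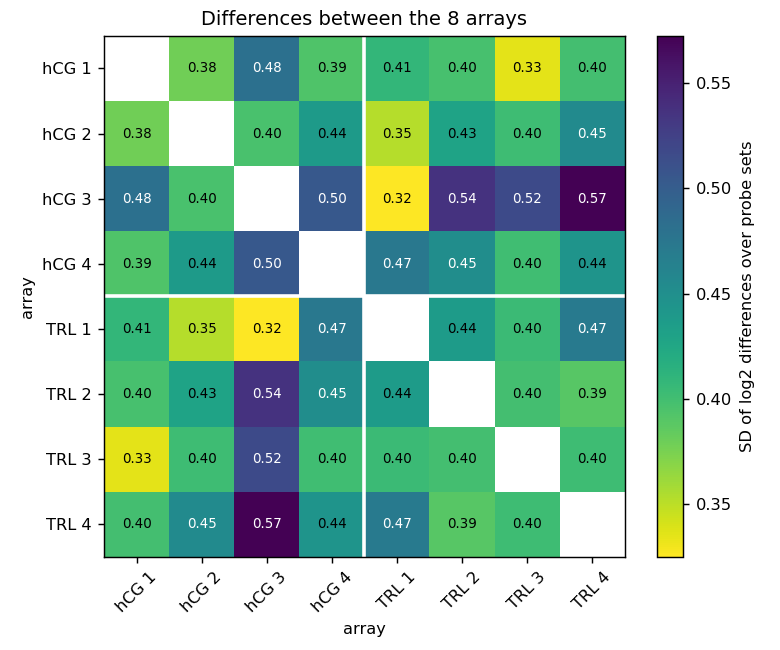
SD of the log2 differences over the tested probe sets for each pair of the 8 arrays (hCG and TRL, hCG with trilostane; white lines part the groups). The pairs across the groups run from 0.325 to 0.573 and cover the range of the pairs within them.

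After 1 day a single probe set passed the test, that of TMEFF2, which was lower with trilostane. TMEFF2 is a transmembrane protein with follistatin-like and EGF-like domains. The 4 hCG arrays read 7.07, 6.43, 6.67 and 7.53 (log2 intensity), and the 4 trilostane arrays 5.25, 4.89, 4.97 and 5.52. The groups did not overlap, and the 4 untreated arrays of the set, at 6.22, 6.19, 6.99 and 7.02, lay with the hCG arrays. TMEFF2 fell from 6.92 ± 0.48 (SD, n = 4) to 5.16 ± 0.29, a log2 change of -1.76 ± 0.26 (SE, 95% interval -2.30 to -1.23, limma adjusted p = 0.009). The trilostane mean lies under the median of all values (6.19), and counted down to that median only, the level was at least 1.67-fold lower. It was the only call among 28911 probe sets, 0.00346% of those tested. The call rests on this probe set alone. A further TMEFF2 probe set did not pass the filter and was not tested. It stood at 3.21 ± 0.12 (SD, n = 4) with hCG and 3.17 ± 0.05 with trilostane, both under the median of all values, and gives no difference.

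Among the 8 fits that each left out 1 of the arrays, TMEFF2 passed in 6, and the call ended without hCG replicate 4 (adjusted p = 0.12) or trilostane replicate 2 (adjusted p = 0.096). It also ended in a fit of the 8 arrays alone (adjusted p = 0.28). Of the arrays without the reanalysis mark and without trilostane, 1 array of day 15 hCG read 6.59, above the trilostane arrays. It differed little from a marked array of its group, replicate 3 (SD of differences 0.201). The 4 untreated arrays of another set stood at 6.25 to 6.93 after adjustment. That adjustment rests largely on the untreated arrays themselves, so their level cannot tell the mark from trilostane. At day 15, with array sets adjusted, the 5 hCG arrays read 6.04 to 6.66 and the 4 trilostane arrays 4.93 to 5.31, again without overlap. These groups lie largely in different array sets. The change was -1.27 ± 0.31 (unadjusted p = 0.00032, adjusted p = 0.20, limma). The effects of the days differed by 0.49 ± 0.41 (limma adjusted p = 1). With R5020 added to trilostane at day 10, TMEFF2 stood at 5.83 ± 0.52 (SD, n = 4), and since this mean and that of trilostane alone both lie under the median of all values, no difference is read between them.

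**Figure D2:**
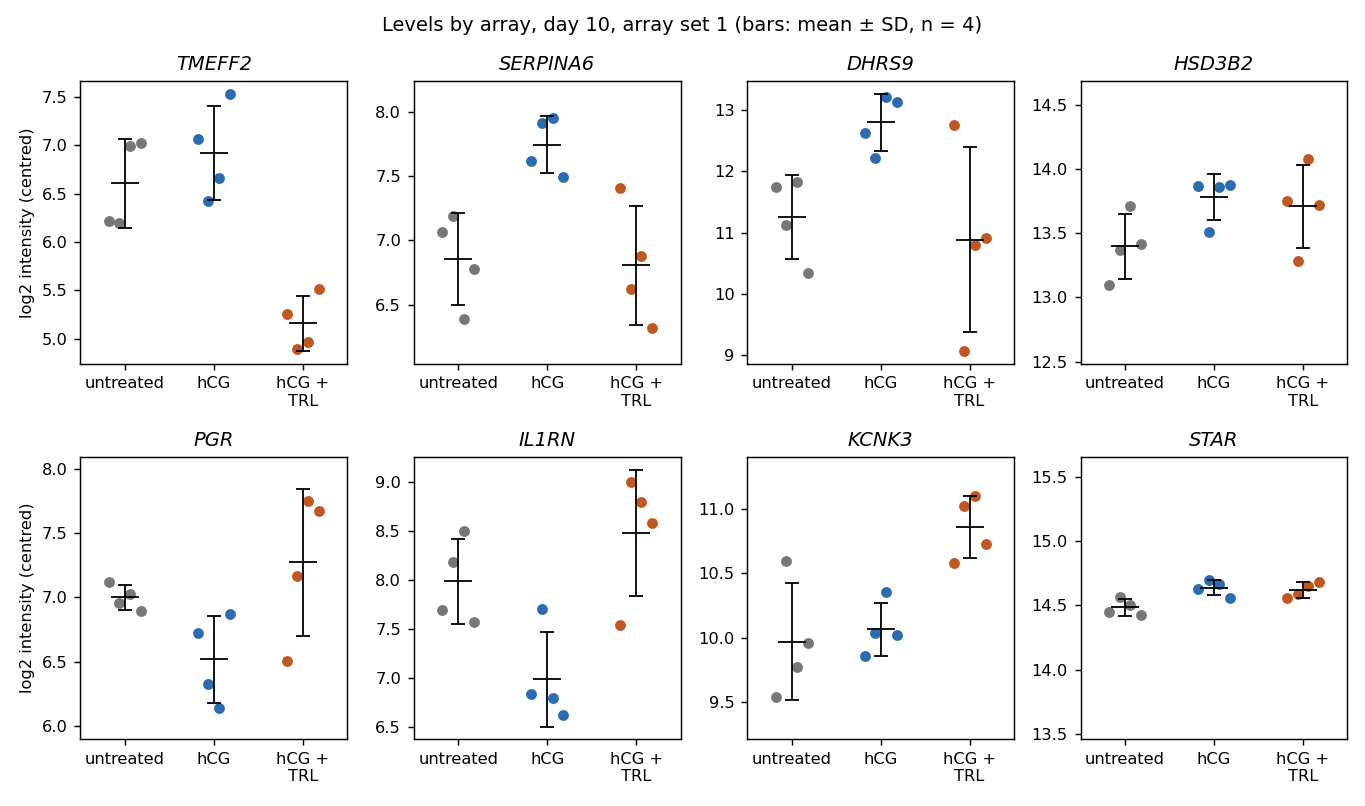
Log2 intensity of 8 genes on each array of luteal day 10 in the first array set: untreated, hCG, and hCG with trilostane (TRL), 4 arrays each. Points are arrays, horizontal bars means and whiskers SD, and only TMEFF2, with its trilostane arrays at 4.89 to 5.52 and its hCG arrays at 6.43 to 7.53, passed the adjusted test.

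Beyond TMEFF2, many genes showed small differences in one direction. At an unadjusted limma p under 0.05 were 3606 probe sets, 12.5% of those tested, 446 of them higher (1.54%) and 3160 lower (10.9%) with trilostane. Over the 9826 genes the median log2 change was -0.11 and 71.5% lay below 0. At the same p 1586 genes (16.1%) were lower and 115 (1.17%) higher. The arrays of the groups did not overlap for 734 genes (7.47%), of which 694 (7.06%) were lower and 40 (0.407%) higher.

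This direction depended on how the arrays were scaled. Of the probe sets at an unadjusted p under 0.05, 87.6% were lower with arrays centred on their medians, 66.2% without centring, 54.6% after quantile normalization and 25.9% with arrays centred on the median of the genes. The differences below are therefore read against the median of all genes, -0.11.

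**Figure D3:**
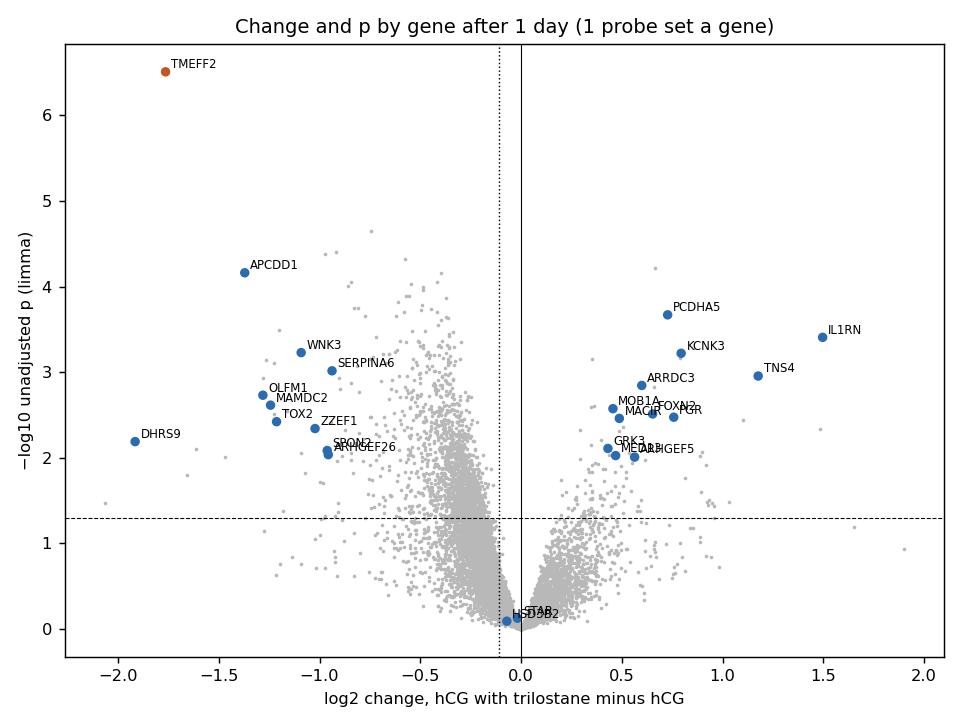
Log2 change (x, hCG with trilostane minus hCG) against −log10 of the unadjusted limma p (y) for 9826 genes. Orange marks the adjusted p under 0.05, blue other genes of the text, the dashed line p of 0.05 and the dotted line the median change of -0.11; TMEFF2 stands alone at the top, and more of the cloud lies left of 0.

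The genes named next have the largest differences among genes at an unadjusted p under 0.01 whose groups did not overlap, which held for 320 genes lower and 13 higher. Apart from TMEFF2, the 10 genes lowest by size were at adjusted p of 0.091 to 0.24 in limma, and none of these 9 passed. APCDD1, a membrane inhibitor of Wnt signalling, read 11.37, 11.70, 11.18 and 11.76 with hCG and 10.52, 9.34, 11.11 and 9.55 with trilostane (-1.37 ± 0.29). Trilostane replicates 2 and 4 set the size of that difference, and replicate 3 lay within 0.1 of the lowest hCG array. SERPINA6, the corticosteroid-binding globulin that carries cortisol and progesterone, read 7.62, 7.91, 7.95 and 7.49 with hCG and 7.41, 6.62, 6.88 and 6.31 with trilostane (-0.94 ± 0.25). Its untreated arrays, at 6.85 ± 0.36 (SD, n = 4), lay near the trilostane arrays.

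OLFM1, a secreted olfactomedin glycoprotein, stood at 8.33 ± 0.22 (SD, n = 4) with hCG and 7.05 ± 0.27 with trilostane. MAMDC2, a secreted proteoglycan, stood at 8.10 ± 0.46 and 6.86 ± 0.59, with untreated tissue at 8.53 ± 0.50. SPON2, a secreted matrix protein, stood at 10.03 ± 0.36 and 9.06 ± 0.33. TOX2, an HMG-box transcription factor, stood at 8.91 ± 0.20 and 7.70 ± 0.80, and its untreated arrays at 7.49 ± 0.84. WNK3, a kinase that regulates chloride cotransporters, differed by -1.09 ± 0.28 (SE), ARHGEF26 by -0.96 ± 0.34, and the zinc-finger protein ZZEF1 by -1.02 ± 0.33.

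Against untreated tissue, APCDD1 rose with hCG by 1.06 (limma adjusted p = 0.029) and TOX2 by 1.40 (adjusted p = 0.026). They were the 2 of these 10 genes that passed, where 4.17% of all genes were higher and 1.23% lower at that threshold. That comparison shares the hCG arrays with the trilostane comparison, so its values are given side by side only.

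On the higher side, TNS4, a tensin of focal adhesions, read 6.15, 7.42, 7.50 and 6.19 with hCG and 8.31, 8.17, 7.78 and 7.71 with trilostane (1.18 ± 0.32, limma adjusted p = 0.13). All 4 trilostane arrays lay above all hCG arrays, and the untreated arrays were lower still at 5.68 ± 0.14 (SD, n = 4). That untreated mean lies under the median of all values. Counted from that median, TNS4 was at least 3.50-fold higher with hCG and trilostane (limma adjusted p against untreated tissue = 0.00013), and it was also higher with hCG alone than in untreated tissue (adjusted p = 0.044). KCNK3, a background potassium channel, read 9.86, 10.04, 10.35 and 10.02 with hCG and 10.58, 11.03, 11.10 and 10.73 with trilostane, without overlap (0.79 ± 0.21, adjusted p = 0.11).

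The other 8 of the 10 genes above 0, taken by the same rule, were between 0.43 and 0.73. PCDHA5, a protocadherin of a cluster whose members share exons so that the probe set may not tell them apart, differed by 0.73 ± 0.17 (SE), while its further probe sets stood at 0.069 and -0.030. ARRDC3, an arrestin-domain regulator of adrenergic receptors, stood at 11.09 ± 0.18 (SD, n = 4) with hCG and 11.69 ± 0.12 with trilostane. GRK3, a kinase that desensitises G-protein-coupled receptors, differed by 0.43 ± 0.15, and by 0.49 on its further probe set. FOXN2 (a forkhead factor), MED13 (a subunit of the Mediator complex) and MOB1A (a co-activator of the Hippo pathway kinases) differed by 0.65, 0.47 and 0.46. Their further probe sets lay nearer 0, at 0.15 for FOXN2, at 0.25, -0.097, 0.14 and -0.017 for MED13, and at 0.21 and 0.077 for MOB1A. On the probe sets described, all 3 fell with hCG against untreated tissue (-0.69, -0.71 and -0.46, limma adjusted p = 0.039, 0.01 and 0.044), while ARHGEF5 (0.96, adjusted p = 0.0044) and TNS4 rose. These 5 of the 10 genes above 0 passed in that comparison, beside 4.17% of all genes higher and 1.23% lower. It shares the hCG arrays by which the 10 genes were chosen, so its values are given side by side only. ARHGEF5 differed by 0.56 ± 0.20 and MACIR, a regulator of macrophage metabolism, by 0.49 ± 0.15. Among the 4 hCG and 4 trilostane arrays of day 10, only replicate 4 of each group has the letter B in its name. On these arrays TMEFF2 differed by -2.01 and PGR by 0.80, against -1.68 and 0.74 on those with the letter A.

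The later contrast shares no array with that of day 10, but its groups lie largely in different array sets and are compared after adjustment. All 10 named genes below 0 at day 10 were below 0 at day 15 as well, where 62.8% of all genes were, and 6 of them were lower at an unadjusted p under 0.05, as were 6.44% of all genes. MAMDC2 stood at -1.48 ± 0.44, ARHGEF26 at -1.46 ± 0.40 and SERPINA6 at -1.06 ± 0.30 at day 15. Of the 10 genes above 0 at day 10, 5 were below 0 at day 15. KCNK3 differed by -0.90 ± 0.24 there, with the 5 hCG arrays at 10.38 to 11.01 and the 4 trilostane arrays at 9.61 to 10.09, the opposite order to day 10. The effects of the days on KCNK3 differed by -1.69 ± 0.32 at an unadjusted limma p of 1.2e-05, which did not pass adjustment (adjusted p = 0.34).

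No probe set passed for the difference between the days in limma, while 1098 (3.8%) were at an unadjusted p under 0.05. At day 15 itself 7 probe sets passed, all lower with trilostane (0.0242%), and 2004 (6.93%) were at an unadjusted p under 0.05. These 7 belong to RBPMS (2), APPL2 (2), HMGB3, WDR41 and KCNMB4. Of the day 15 arrays, hCG replicates 3 and 5 differed by an SD of 0.201 and trilostane replicate 4 and R5020 replicate 4 by 0.192, against a median of 0.476 over all 528 pairs of arrays, so they may share their RNA. No probe set passed at day 15 with those hCG replicates as 1 sample, or without those trilostane and R5020 replicates. APPL2, an adaptor of endosomes and insulin signalling, differed by -0.82 ± 0.20 and -0.75 ± 0.20 on its probe sets at day 10 (limma adjusted p = 0.095 and 0.11). The RNA-binding protein RBPMS, by contrast, differed by -0.19 ± 0.10 and -0.23 ± 0.13 at day 10.

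**Figure D4:**
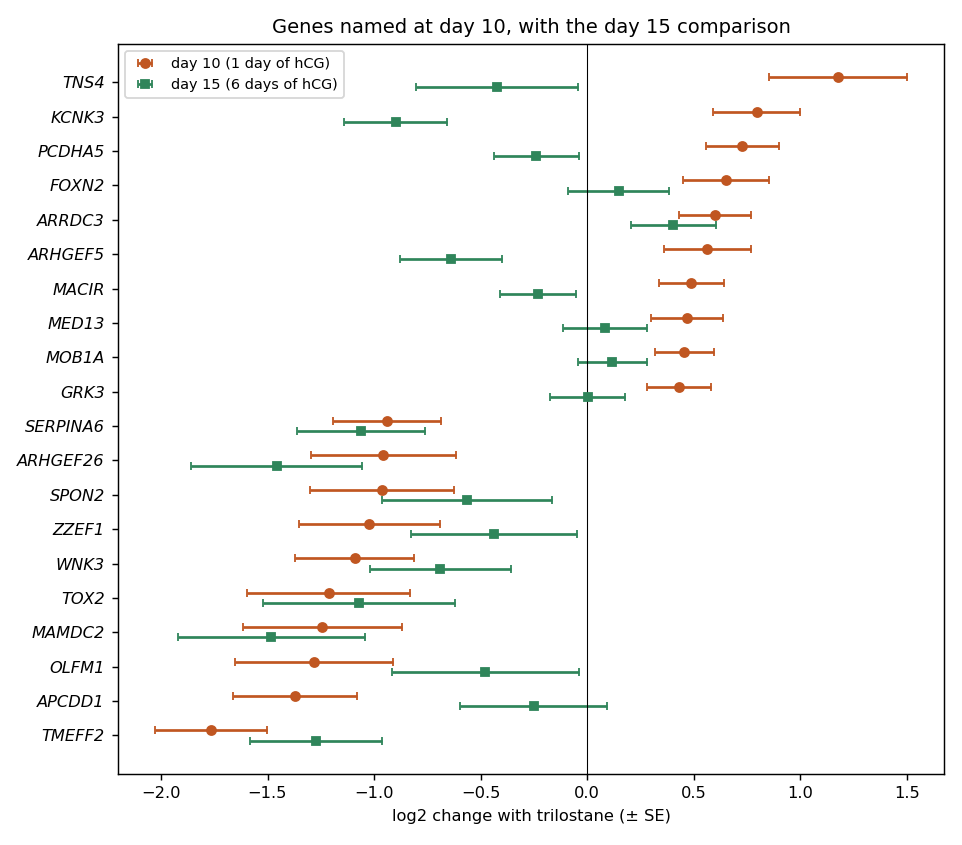
Log2 change with trilostane (x, points ± SE) at day 10 and day 15 for the 10 largest differences above 0 and the 10 largest below 0 among genes at an unadjusted p under 0.01 whose groups did not overlap at day 10. All 10 genes below 0 at day 10 were below 0 at day 15, and of the 10 above 0, 5 were below 0 at day 15, KCNK3 lowest at -0.90.

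In the steroid pathway no gene passed the adjusted test. STAR read 14.63, 14.69, 14.66 and 14.56 with hCG and 14.56, 14.59, 14.65 and 14.69 with trilostane (-0.017 ± 0.054, 95% interval -0.13 to 0.093), so the groups overlapped fully, and values this near the top of the scale may be compressed. HSD3B2, an isoform of the enzyme that trilostane inhibits, read 13.87, 13.51, 13.86 and 13.88 with hCG and 13.75, 13.29, 14.08 and 13.72 with trilostane (-0.070 ± 0.29, 95% interval -0.67 to 0.53). Which of the near-identical isoforms its probe set detects was not tested. At day 15, with array sets adjusted, the 5 hCG arrays read 11.87 to 12.88 and the 4 trilostane arrays 10.31 to 11.63. The change was -1.61 ± 0.34 (limma adjusted p = 0.12). The difference between the days was -1.54 ± 0.45 at an unadjusted limma p of 0.002, and did not pass adjustment (adjusted p = 1).

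DHRS9, a short-chain dehydrogenase that oxidises retinol and 3-alpha-hydroxysteroids, had the largest difference among the steroid genes. It read 12.63, 12.22, 13.21 and 13.13 with hCG and 12.76, 9.07, 10.79 and 10.91 with trilostane. Trilostane replicate 1 lay among the hCG arrays and replicate 2 far below the others. The difference was -1.91 ± 0.65 (limma unadjusted p = 0.0065, adjusted p = 0.21), and -2.65 ± 0.77 at day 15 (adjusted p = 0.39). CYP17A1, which makes androgen precursors, differed by -0.33 ± 0.40 and CYP19A1, the aromatase that makes estrogens, by -0.55 ± 0.42, with intervals that include 0. HSD17B4, a peroxisomal dehydrogenase, differed by -0.27 ± 0.11, and FDXR, which feeds electrons to the mitochondrial steroid enzymes, by -0.37 ± 0.18. The list of steroidogenesis had 17 of 19 measured members below 0 and a median of -0.14, against -0.11 over all genes. At an unadjusted p under 0.05, 3 of the 19 were lower and none higher, beside 16.1% and 1.17% of all genes. Of 15 cholesterol synthesis genes 13 lay below 0 (median -0.24), none at an unadjusted p under 0.05, and SREBF2, the transcription factor that drives them, differed by -0.24 ± 0.14, with further probe sets at 0.28, -0.31 and -0.28. Of 8 genes of cholesterol uptake and storage 4 lay below 0, where 71.5% of all genes did.

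PGR, the nuclear progesterone receptor, lay above 0. It read 6.73, 6.33, 6.14 and 6.87 with hCG and 6.51, 7.17, 7.75 and 7.67 with trilostane, with the untreated arrays of the set between 6.89 and 7.12. Trilostane replicate 1 lay among the hCG arrays and the other 3 above all of them. The difference was 0.76 ± 0.24 (limma unadjusted p = 0.0034, adjusted p = 0.17), and 1.01 without trilostane replicate 1 (adjusted p = 0.04). Without any one of the other 7 arrays it was 0.60 to 0.88, at limma adjusted p of 0.14 to 0.48. With R5020 added it stood at 6.67 ± 0.12 (SD, n = 4), 0.60 below trilostane alone (limma adjusted p = 1), a comparison that shares the trilostane arrays. The R5020 arrays all lie in another array set, so that difference rests on the adjustment between sets. The membrane progestin partner PGRMC1 differed by -0.081 ± 0.15 and the glucocorticoid receptor NR3C1 by -0.0032 ± 0.11. Of the 7 measured steroid receptor genes PGR alone was at an unadjusted p under 0.05, where 1.17% of all genes were higher and 16.1% lower.

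Among genes known to respond to progestins or glucocorticoids, 20 of 22 lay below 0, with a median of -0.29, beside 71.5% below 0 and a median of -0.11 over all genes. At an unadjusted p under 0.05, 6 of the 22 were lower and none higher, beside 16.1% and 1.17% of all genes, and none passed adjustment. Without centring 17 of the 22 lay below 0 (median -0.24), beside 60.8% of all genes and a median of -0.053 over them. ZBTB16, a zinc-finger repressor, read 8.02, 8.52, 8.11 and 8.78 with hCG and 8.17, 7.12, 7.52 and 7.08 with trilostane, so that trilostane replicate 1 again lay among the hCG arrays (-0.89 ± 0.32). CITED2, a co-regulator of transcription, differed by -0.41 ± 0.12 and -0.42 ± 0.19 on its probe sets, and FOXO1, a forkhead factor, by -0.49 ± 0.19 without overlap. FKBP5, a chaperone partner of steroid receptors, differed by -0.32 ± 0.33, and the interval of -0.99 to 0.35 leaves its direction unsettled.

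In the gonadotropin and activin lists only TMEFF2 passed the adjusted test. Of 15 genes of gonadotropin and cyclic AMP signalling 6 lay below 0 (median 0.056), beside 71.5% of all genes (median -0.11). PRKAR2B, a regulatory subunit of protein kinase A, was highest at 0.66 ± 0.19 (limma adjusted p = 0.14). FST, the activin-binding protein follistatin, read 10.53, 11.08, 10.35 and 11.10 with hCG and 11.04, 9.88, 10.48 and 10.06 with trilostane (-0.40 ± 0.27). Its further probe sets differed by 0.18 ± 0.34 and -0.056 ± 0.25, so they did not share a sign. INHBA, the activin subunit that FST binds, differed by 0.96 ± 0.44, with hCG arrays at 10.88 ± 0.44 (SD, n = 4), trilostane arrays at 11.84 ± 0.97 and untreated arrays at 12.14 ± 0.86. The follistatin and TGF-beta family had 21 of 24 members below 0 (median -0.13), 2 lower, TMEFF2 among them, and 1 higher at an unadjusted p under 0.05, beside 16.1% lower and 1.17% higher of all genes.

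Of 11 inflammation and chemokine genes 6 lay below 0 (median -0.079), beside 71.5% of all genes (median -0.11). At an unadjusted p under 0.05, 1 of the 11, IL1RN, was higher and none lower, beside 1.17% and 16.1% of all genes. IL1RN, the interleukin-1 receptor antagonist, read 6.83, 7.70, 6.80 and 6.62 with hCG and 7.55, 9.00, 8.80 and 8.59 with trilostane. It differed by 1.50 ± 0.37 (limma adjusted p = 0.10) and passed without trilostane replicate 1 (1.81, adjusted p = 0.029). Without any one of the other 7 arrays it was 1.33 to 1.74, at limma adjusted p of 0.11 to 0.35. Its further probe sets differed by 0.82 ± 0.28 and 1.06 ± 0.31. At day 15 IL1RN stood at -0.64 ± 0.44, and the effects of the days differed by -2.14 ± 0.57 (unadjusted p = 0.00088, adjusted p = 1, limma). DDIT3 and TRIB3, which the unfolded protein response induces, differed by 0.92 ± 0.34 and 1.03 ± 0.46, and trilostane replicate 2 was highest for both, at 10.61 and 10.38. They were the 2 of 13 members of the stress and chaperone list at an unadjusted p under 0.05, beside 1.17% of all genes higher at that p, while 9 of the 13 lay below 0. Of 19 interferon response genes 16 lay below 0 (median -0.16), none at an unadjusted p under 0.05, and at day 15 their median was 0.47. MX1, an antiviral GTPase, was at -0.61 ± 0.33 at day 10 and 0.93 ± 0.39 at day 15.

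Energy, antioxidant and cell cycle genes are read beside the 71.5% of all genes below 0 and the 16.1% lower at an unadjusted p under 0.05. Of 15 genes of hypoxia and glycolysis 13 lay below 0 and 5 were lower at an unadjusted p under 0.05 (median -0.20). PKM, a pyruvate kinase, read 11.30, 11.24, 11.78 and 11.19 with hCG and 10.95, 10.93, 10.70 and 10.77 with trilostane, without overlap (-0.54 ± 0.19). The glycolytic enzymes ENO1 and ALDOA differed by -0.24 ± 0.08 and -0.28 ± 0.11, also without overlap. Of 13 genes of oxidative phosphorylation 11 lay below 0 and 4 were lower at the same p (median -0.20), with SDHA, a subunit of succinate dehydrogenase, at -0.45 ± 0.14. Of 12 antioxidant genes 10 lay below 0 and 4 were lower (median -0.32), among them the superoxide dismutases SOD1 (-0.32 ± 0.14) and SOD2 (-0.43 ± 0.18, but 0.12 on its further probe set) and the glutathione transferase GSTM3 (-0.68 ± 0.32). Of 17 cell cycle genes 15 lay below 0 and 3 were lower (median -0.15), a share near that of all genes: CCNB2 and CCNB1, the B cyclins, at -0.69 ± 0.26 and -0.65 ± 0.28, and the proliferation marker MKI67 at -0.66 ± 0.25. None of these members passed adjustment in limma.

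The other lists were counted in the same way, beside 71.5% of all genes below 0 with a median of -0.11. At an unadjusted p under 0.05, 16.1% of all genes were lower. Angiogenic and vasoactive factors had 13 of 15 members below 0 (median -0.13), ANGPT1, a ligand of the endothelial receptor TEK, at -0.42 ± 0.19. Matrix genes had 14 of 17 below 0 (median -0.17), LAMB1, a laminin chain, at -0.42 ± 0.18. Prostaglandin genes had 5 of 7 below 0 (median -0.18), EGF receptor ligands and receptors 5 of 6 (median -0.30), immediate early genes 9 of 14 (median -0.067) and apoptosis genes 10 of 13 (median -0.037). FOSL2, an AP-1 subunit, was the single immediate early gene at an unadjusted p under 0.05 (-0.46 ± 0.19). With arrays centred on the median of the genes, the medians of the lists of immediate early, apoptosis, steroid receptor, cholesterol uptake, inflammation and stress genes turned above 0, as did those of the luteal, lymphocyte and epithelial markers. The medians of the progestin and glucocorticoid response, cholesterol synthesis, glycolysis, oxidative phosphorylation and antioxidant lists kept their sign under each scaling tried. This is not particular to them, as the EGF receptor list (-0.30) and the pericyte markers (-0.28) did not turn above 0 on the genes' median either.

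**Figure D5:**
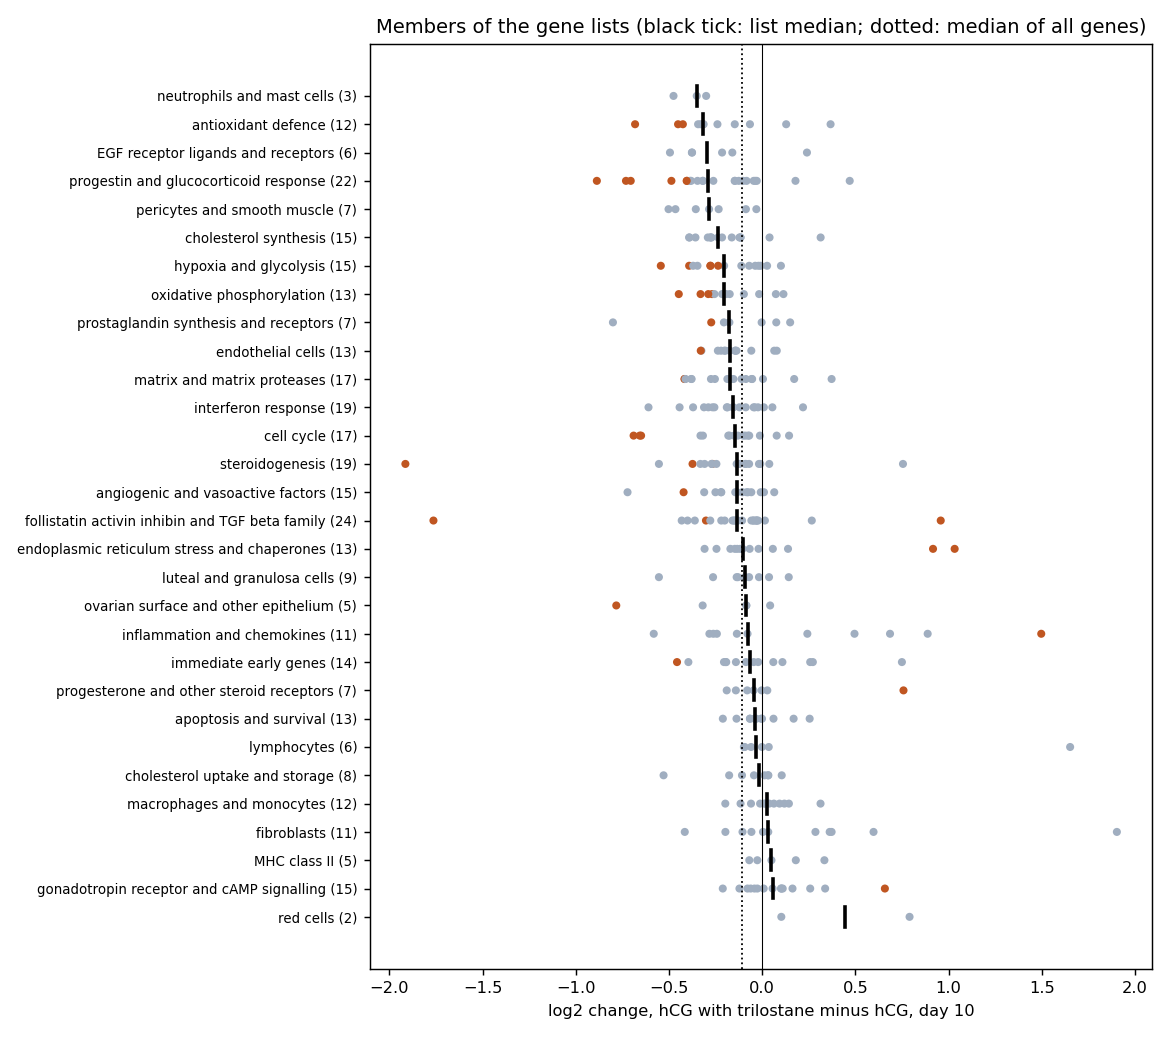
Log2 change at day 10 (x) of each measured member of the gene lists (rows, number of members in brackets). Orange points are at an unadjusted limma p under 0.05, black ticks are list medians and the dotted line is the median of all genes at -0.11; the progestin and glucocorticoid response list has its median at -0.29 and 20 of 22 members below 0.

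Markers of the cell types in the tissue were measured beside these genes. Their counts are read beside the 71.5% of all genes below 0 and the median of -0.11. The mean log2 level of 9 luteal and granulosa markers ran from 11.56 to 11.77 over the hCG arrays and from 11.41 to 11.73 over the trilostane arrays (median change -0.092). For 13 endothelial markers the ranges were 9.50 to 9.71 and 9.26 to 9.59 (median -0.18), with ENG, a TGF-beta co-receptor, at -0.33 ± 0.16. For 7 pericyte and smooth muscle markers they were 9.64 to 9.90 and 9.26 to 9.79, and all 7 lay below 0 (median -0.28). None of these 7 was at an unadjusted p under 0.05, and the groups overlapped for each. For 11 fibroblast markers the ranges were 9.14 to 9.46 and 9.16 to 9.74 (median 0.032), with 4 below 0 and 7 above. DCN, a collagen-binding proteoglycan, was at 0.60 ± 0.30, with further probe sets at 0.47, 0.56, 0.75 and -0.020. The collagen chain COL1A1 was at -0.42 ± 0.31. The ranges of 12 macrophage markers were 8.84 to 9.27 and 8.68 to 9.64 (median 0.028), of 6 lymphocyte markers 8.11 to 8.59 and 8.16 to 9.08 (median -0.031), and of 5 class II genes 9.44 to 9.68 and 9.22 to 10.15 (median 0.050). Of the 3 measured neutrophil and mast cell markers, 2 had means under the median of all values in both groups and give no difference. Red cell markers were both above 0 (median 0.45). Of 5 epithelial markers 4 lay below 0 (median -0.085). The keratin KRT8 was the lowest of them at -0.78 ± 0.26, without overlap, as were 7.47% of all genes. GNLY, granulysin of cytotoxic lymphocytes, read 7.81, 10.58, 9.00 and 8.92 with hCG and 9.63, 12.29, 8.81 and 12.18 with trilostane (1.65 ± 0.85), high in trilostane replicates 2 and 4. The further probe set of GNLY differed by 0.13 ± 0.14, and 4 of the 6 lymphocyte markers lay below 0. No marker passed adjustment, and the part of cell composition in the differences above was not tested.

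How many probe sets passed depended on single arrays. Without trilostane replicate 1, the array closest to an hCG array, 143 passed (133 lower, 10 higher), and 43 without hCG replicate 1 and 20 without trilostane replicate 3. None passed without hCG replicate 4 or trilostane replicate 2, and 3751 and 2589 were then at an unadjusted p under 0.05. With hCG replicate 3 and trilostane replicate 1 both left out, 5 passed, all lower, TMEFF2 among them. A total of 12 genes passed in at least 2 of the 8 fits that left out 1 array. After TMEFF2 and APCDD1 the 8 with the smallest p were CCND3, DDX60, ANO6, C9orf72, STX18, KYAT1, STIM1 and PIDD1, all at an adjusted p of 0.091 with all arrays. CCND3, cyclin D3, differed by -0.74 ± 0.15 and DDX60, an antiviral helicase, by -0.92 ± 0.19. STIM1, the calcium sensor of the endoplasmic reticulum, differed by -0.86 ± 0.19, the phospholipid scramblase ANO6 by -0.58 ± 0.12 and PIDD1, a death-domain adaptor, by -0.49 ± 0.11. The further probe sets of PIDD1 stood at 0.016, -0.17 and 0.035, and that of DDX60 at -0.31. C9orf72, a regulator of membrane traffic, was the only one above 0 (0.66 ± 0.14). KYAT1, a kynurenine aminotransferase, and STX18, a SNARE protein, differed by -0.84 ± 0.18 and -0.42 ± 0.09. DDX60, ANO6, PIDD1, STIM1 and KYAT1 had all risen with hCG against untreated tissue (limma adjusted p = 0.00025, 0.00061, 0.0016, 0.00067 and 0.0029), beside 4.17% of all genes, a comparison that shares the hCG arrays. Of the genes named by size, APCDD1, WNK3, SERPINA6 and PCDHA5 passed without trilostane replicate 1 (limma adjusted p = 0.031, 0.044, 0.044 and 0.037), and APCDD1 also without trilostane replicate 3 (adjusted p = 0.017).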

How the data were processed

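Each luteal RNA sample was measured on its own Affymetrix Rhesus Genome array. The values used are log2 intensities per probe set as deposited by the authors; how they were background-corrected, summarized and normalized is not given in the sources used here. Probe sets (99 controls left out) were named through the platform annotation. Probe sets above 6.19, the overall median, in 4 or more arrays were kept. Arrays were centred on their medians, which differed by up to 0.183. A limma fit (limma 3.58.1, statmod 1.5.0, R 4.3.3; lmFit, eBayes with a mean-variance trend) of all 33 arrays had group and array set as terms and 24 residual degrees of freedom. P-values are two-sided, with Benjamini-Hochberg adjustment over all 28911 probe sets, and the code was tested on simulated data. With 4 arrays a group, their number limits the precision.

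Members and the 30 gene lists were chosen with earlier results of these data known. Named are genes past adjusted p 0.05; the 10 largest differences each way at unadjusted p under 0.01, without overlap and with the higher mean at least the median of all values; 12 steroid pathway genes (9 measured); up to 3 members of each list with the smallest p, left out of the text above an unadjusted p of 0.2 (26 genes); and 10 genes passing in at least 2 fits that left out 1 array. Day 15 callers are named after their values were seen. Alternatives changed the normalization, filter, model and arrays.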

Additional observations from a re-analysis of the deposited data

Results flagged for a closer look

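In 9 of 194 groups of 4 arrays tested, 1 array lay apart from the other 3 by more than Dixon's 95% critical value, and chance alone flags about 1 in 20. Among the hCG arrays replicate 2 was low for HSD3B2 (13.51 on the log2 scale, the others 13.86 to 13.88) and FDXR (11.01, the others 11.32 to 11.37) and high for DCN (13.28, the others 12.30 to 12.45). Among the trilostane arrays replicate 1 was high for SOD1 (12.67, the others 12.19 to 12.25) and STX18 (8.35, the others 7.93 to 7.99). Replicate 2 was low for FKBP5 (7.60, the others 8.32 to 8.39) and MOB1A (10.07, the others 10.29 to 10.33). Replicate 3 was high for ARRDC3 (11.86, the others 11.63), and replicate 4 low for SOD2 (9.34, the others 9.55 to 9.58). Their causes were not tested.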

How the results depend on the processing

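The 1 call at day 10 became 2 without the filter and 5 with hCG replicate 3 and trilostane replicate 1 both left out, a setting chosen after seeing the data. It became 0 with the filter on the mean, only the 8 arrays, only array set 1 or centring on the genes' median (also chosen after seeing the data), and ran from 0 to 143 when 1 array was left out. Correlations of deviations between arrays of the same replicate number were -0.38, 0.03, -0.25 and 0.21, too few to tell whether the numbers pair the samples. The highest across the groups was 0.63, between hCG replicate 3 and trilostane replicate 1. The fits with a replicate block or with the array name letter as a term used only the 8 arrays, where 0 probe sets passed without either term. With the replicate block there were 0 calls and 1996 probe sets at an unadjusted p under 0.05, and with the letter 0 and 2991, against 2810 with only the 8 arrays. With 1 array left out of the full fit, 2353 to 4545 were at that p. The 7 calls at day 15 became 12 without the filter, 3 with array weights, 0 without the near-identical arrays and 0 with hCG replicates 3 and 5 as 1 sample, and ran from 0 to 23 with 1 array left out. The difference between the days had 0 calls in all 26 alternatives. The difference of array medians, 0.054, was -0.016 over the kept probe sets.

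TMEFF2 kept its sign in every alternative, and its adjusted p was 0.28 with only the 8 arrays, 0.17 with the replicate block and 0.10 with the letter term on those 8, 0.11 with only array set 1 and 0.061 (log2 change -1.63) when centred on the genes' median. STAR turned to 0.036 without centring, 0.044 after quantile normalization, 0.013 with both arrays left out and 0.11 on the genes' median, HSD3B2 to 0.0067 after quantile normalization, 0.024 with array weights and 0.061 on the genes' median, PGRMC1 to 0.037 and 0.051 with quantile normalization and the genes' median, and NR3C1 to 0.051 without centring, 0.11 after quantile normalization and 0.13 on the genes' median. With 1 array left out STAR ran from -0.043 to 0.0041, HSD3B2 from -0.19 to 0.071 and NR3C1 from -0.083 to 0.058. Of 2229 alternatives over the named genes, 2179 kept both direction and side of the threshold, 7 lost and 24 gained a call and 19 reversed.

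Of 420 alternatives over list medians, 33 moved by more than the spread between arrays. The cause of these changes was not tested. With 4 arrays a group, the printed intervals give the precision of each difference.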
